A study of Caenorhabditis elegans with 19 samples.

Results

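Depletion of GRWD-1 was compared with its ethanol control in gonads dissected from young adult Caenorhabditis elegans hermaphrodites. The members of this comparison are 6 of the 19 RNA-seq libraries of the study, 3 from auxin-treated and 3 from ethanol-treated animals of strain ESC422, and they were chosen by their labelled strain and treatment with same-numbered replicates taken as pairs. Animals of all 6 libraries carried GRWD-1 with an auxin-inducible degron, a tag through which the plant hormone auxin (IAA) triggers breakdown of the protein. From late L4, worms were kept for 18 h at 20 °C on 1 mM auxin or on the same volume of ethanol, and each replicate pooled 20 gonads. The other libraries came from a strain with the degron on the RNA polymerase I subunit RPOA-2 and from a strain with the degron on TSR-2, whose libraries are not analysed here. The labels name neither the driver of the TIR1 receptor nor any auxin-treated strain without a degron, so the effect of auxin itself and that of losing GRWD-1 cannot be told apart. They also do not say whether replicates came from separate cultures, so p-values measure the spread between these libraries.

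GRWD-1 belongs to a conserved family of WD-repeat proteins. Its yeast relative, Rrb1, binds newly made ribosomal protein L3 and carries it to the precursor of the large (60S) ribosomal subunit, where L3 helps to fold the 26S rRNA (25S in yeast). The 18S, 5.8S and 26S rRNAs are cut from a single transcript of RNA polymerase I, which also holds external and internal spacers (5ETS, ITS1, ITS2 and 3ETS) that are removed during assembly. In the gonad, germ cells proliferate, pass through meiosis and grow into oocytes that are loaded with ribosomes.

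The transcript of the tagged gene was present in every library. For grwd-1 (WBGene00021899, on the plus strand of III from 5153464 to 5155436 in WBcel235) the ethanol libraries held 283, 389 and 306 CPM (counts scaled by the normalised library size) and the auxin libraries 395, 452 and 355 CPM. The auxin library was the higher in each pair, while the groups overlapped, and the log2 change was 0.30 ± 0.1002 (SE, n = 3 pairs) with an adjusted p of 0.0655. Auxin acts on the protein, which was not measured here, so this transcript does not check the depletion. The transcript of L3, rpl-3, stood at 6347, 7554 and 7764 CPM in ethanol and at 8621, 9449 and 6987 CPM in auxin, with an adjusted p of 0.302.

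Libraries held 2031037 to 2993987 protein-coding counts in ethanol and 4229644 to 8526501 in auxin, and the auxin library held more of them in every pair. All fractional counts, in which multi-mapping reads are shared out as fractions, overlapped between the groups. They summed to 25641400 to 30983400 in ethanol and 22199400 to 29002500 in auxin. Protein-coding genes took 8.43, 11.1 and 8.64% of them in ethanol and 19.3, 30.4 and 19.9% in auxin. A count of 3 corresponded to 0.365 to 1.45 CPM. Since PCR copies were not told apart by molecular identifiers, such floors cover counting error only. The label of dissected germline was checked against markers. The 10 germline markers summed to 6980 to 8545 CPM in ethanol and 6534 to 8351 CPM in auxin, and the 10 oocyte markers to 9372 to 12068 CPM and 9129 to 11962 CPM, with overlapping groups in both. The 10 sperm markers summed to at most 10.1 CPM in any library. In bulk RNA fewer cells of a type and less RNA per cell cannot be told apart.

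Ribosomal RNA took a smaller share of the counts after depletion, and 26S rRNA fell against 18S rRNA in each pair. Together the rRNAs made up 80.4, 79.9 and 79.6% of the fractional counts in ethanol and 70.3, 61.2 and 68.9% in auxin. All 3 auxin libraries lay below all 3 ethanol libraries (exact permutation test, two-sided p = 0.1, the smallest that 3 against 3 can give). The 26S share was 36.7, 43.1 and 42.2% in ethanol and 23.1, 27.5 and 23.5% in auxin (exact p = 0.1). The groups did not overlap for 26S, whereas they did for 18S, at 42.8, 36.2 and 36.5% against 46.2, 33.0 and 44.5% (exact p = 0.7). The ratio of 26S to 18S counts was 0.857, 1.19 and 1.16 in ethanol and 0.4996, 0.834 and 0.528 in auxin (exact p = 0.1), so that it fell in 3 of 3 pairs. These are parts of a whole. Set against protein-coding counts, 18S also fell, from 5.08, 3.27 and 4.23 to 2.39, 1.08 and 2.23 per protein-coding count, and 26S fell further, from 4.35, 3.90 and 4.89 to 1.20, 0.904 and 1.18 (exact p = 0.1 for each). Neither 5.8S nor 5S separated the groups.

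Spacers of the precursor were higher relative to mature rRNA at both ends of the transcript. Per 1000 counts of 18S, 5.8S and 26S, the 5ETS gave 0.365, 0.477 and 0.372 in ethanol and 0.888, 1.48 and 0.709 in auxin. The 3ETS gave 0.282, 0.403 and 0.405 against 0.759, 1.24 and 0.571, and ITS1 gave 2.23, 1.92 and 2.18 against 3.39, 4.39 and 3.26. For these 3 spacers every auxin library exceeded every ethanol library (exact p = 0.1 for each). ITS2, which lies between 5.8S and 26S, did not separate the groups, at 29.3, 21.3 and 43.4 in ethanol and 24.6, 26.5 and 30.9 in auxin (exact p = 0.8), and its mean difference changed sign without replicate 3. The denominator, mature rRNA, itself fell against protein-coding counts. As a share of all fractional counts the mean rose 2.07-fold for the 5ETS, 1.93-fold for the 3ETS and 1.44-fold for ITS1. Protein-coding genes rose 2.48-fold by the same measure, so the rise of these spacers depends on the denominator.

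**Figure D1:**
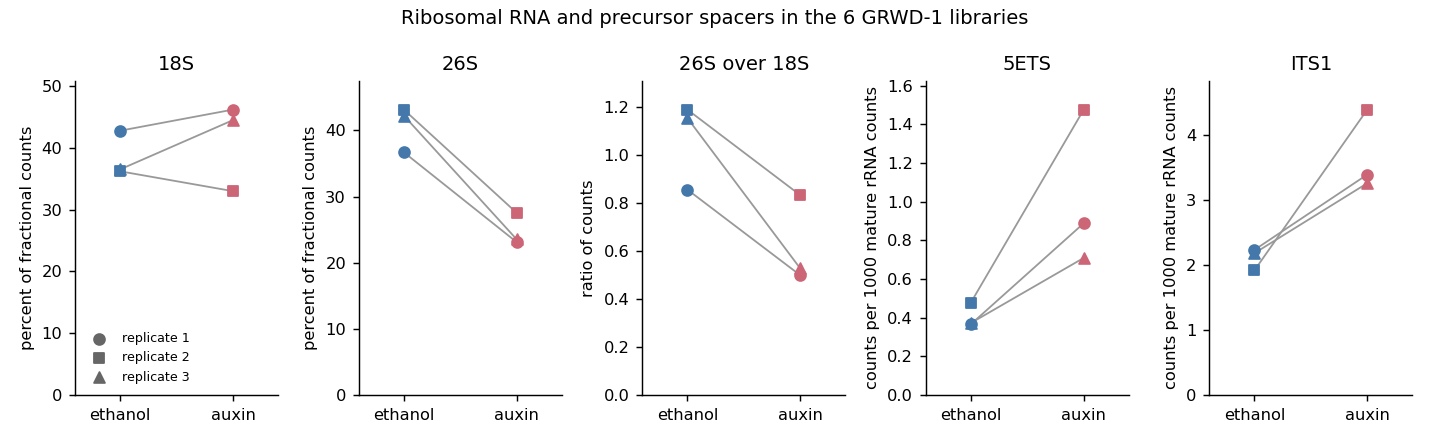
Share of 18S and 26S rRNA in the fractional counts (percent), the ratio of 26S to 18S counts, and the 5ETS and ITS1 spacers per 1000 mature rRNA counts, in each of the 6 libraries, with same-numbered replicates joined by a line. The 26S share and the ratio were lower in auxin in 3 of 3 pairs, the spacers higher in 3 of 3, and 18S overlapped between the groups.

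Across protein-coding genes, auxin against ethanol asks which transcripts differ when GRWD-1 is depleted. Of 6948 genes tested with edgeR and the replicate number as a block, 499 rose (7.18%) and 476 fell (6.85%) with an adjusted p under 0.05. Either direction took in 975 genes (14%), and 1986 had an unadjusted p under 0.05. Without the block 84 genes were higher (1.21%) and 103 lower (1.48%), and all 187 were also called with it. Among the 975 calls the median absolute log2 change was 0.61, 159 changed at least 2-fold, and in 791 the groups were fully separate, as they were in 24.6% of the genes tested. The split between higher and lower genes depended on the scaling, with 654 higher and 416 lower for total counts and 585 and 348 without the filter on low counts. Leaving out replicate 1 gave 168 higher and 275 lower genes, and leaving out replicate 2 gave 329 and 286. Below, a gene rose or fell where it passed with the block, and for most groups the text says what passed without it. These changes are relative to protein-coding counts, whose mean share of all fractional counts rose 2.48-fold. A fall in CPM thus need not be a fall as a share of all fractional counts, which was not computed per gene. Counts of calls in a list are read beside the 7.18% higher and 6.85% lower of all genes tested. All lists were chosen with earlier results of these data known, so an excess over these shares is a description and no independent support.

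Listed ribosome assembly factors, the proteins that process rRNA and build the subunits, mostly rose where they changed. The list also holds genes with other roles, such as larp-1 and ncl-1. Of 44 tested, 17 were higher and 3 lower, beside 7.18 and 6.85% of all genes, and the median log2 change was 0.29 against -0.00079 over all genes. The pescadillo homologue lpd-7, needed for 26S maturation, was at 584, 639 and 628 CPM in ethanol and 1093, 1245 and 943 CPM in auxin. All 3 auxin libraries were above all ethanol libraries, with a log2 change of 0.82 ± 0.104 (SE, adjusted p 0.000362). nsun-5, a methyltransferase of 26S rRNA, rose from 49.7, 37.04 and 37.7 CPM to 99.0, 93.5 and 76.9 CPM (log2 change 1.12, adjusted p 0.000731). eif-6, which keeps the large subunit from joining the small one until it is mature, rose by 0.76 on the log2 scale (adjusted p 0.00145), and dis-3, the nuclease of the exosome that trims rRNA ends, by 0.69. The 3 that fell were larp-1 (-0.62), ncl-1 (-0.40) and dao-5 (-0.43). larp-1 encodes an RNA-binding protein known in mammals to bind ribosomal protein mRNAs, ncl-1 a repressor of nucleolar size, and dao-5 a nucleolar protein. Without the block 6 were higher and 0 lower, and without replicate 1 the count of higher factors was 9. Of 11 RNA polymerase I subunits 2 were higher, rpac-19 (log2 change 0.67) and rpac-40 (0.78), both shared with RNA polymerase III, and neither passed without the block.

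Cytosolic ribosomal protein genes did not move as a block. Of 47 large-subunit genes tested 3 were higher and 12 lower, with a median log2 change of 0.052, and of 31 small-subunit genes 0 were higher and 6 lower, with a median of -0.080. With total counts as the scaling the large-subunit genes gave 10 higher and 10 lower, so the balance of directions in this family depends on the scaling. Without the block the large-subunit counts were 1 and 3 and the small-subunit counts 0 and 2. Single genes changed more than the family. rpl-11.2 (WBGene00004423, on the minus strand of X from 2241738 to 2242618), the less used copy of the L11 gene pair, rose from 67.1, 46.4 and 93.2 CPM to 258, 232 and 248 CPM (log2 change 1.88 ± 0.158 SE, adjusted p 2.67e-05). Its ethanol and auxin libraries were far apart, though separate groups were a condition for naming it among the largest rises. rpl-12 fell from 2170, 2380 and 2457 CPM to 1051, 1182 and 901 CPM (log2 change -1.17, adjusted p 5.27e-05), and rps-20 from 653, 835 and 820 CPM to 356, 279 and 226 CPM (-1.44, adjusted p 0.000124). rpl-12 and rps-20 passed in both fits, as did rpl-26 (-0.69) and rps-12 (-0.79). rpl-41.2 (-1.57) and rpl-22 (-0.98) did not pass without the block, nor did the rises of rpl-2 (0.62) and rpl-4 (0.39).

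Mitochondrial ribosomal protein genes, which build the ribosome that translates the mitochondrial genome, rose where they changed. Of 70 tested 27 were higher and 0 lower, 60 had a positive log2 change, and the median was 0.45. Their summed level was 3371 to 3471 CPM in ethanol and 4729 to 5006 CPM in auxin, without overlap. mrps-2 (WBGene00020718, on the plus strand of V from 8465686 to 8467159) rose from 39.6, 33.4 and 42.1 CPM to 94.1, 117 and 112 CPM (log2 change 1.49 ± 0.163 SE, adjusted p 0.000139). mrps-17 (WBGene00015487, on the minus strand of III from 6431042 to 6431798) rose from 66.1, 66.9 and 55.1 CPM to 176, 162 and 141 CPM (log2 change 1.35, adjusted p 5.27e-05). The lowest auxin library was more than double the highest ethanol library in both genes, though separate groups were a condition for naming them among the largest rises. mrpl-9 (1.28) and mrps-5 (0.95) followed. Without the block 10 remained higher and 0 lower, and without replicate 1 the count with the block was also 10. tfbm-1, a relative of the mitochondrial rRNA methyltransferase TFB1M, rose by 1.44 on the log2 scale (adjusted p 0.00758).

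Relative to protein-coding counts, the transcripts that this ribosome translates moved the other way. The mean share of protein-coding genes in all fractional counts rose 2.48-fold, so the direction of these transcripts depends on the denominator too. Their share of all fractional counts was not computed. All 12 protein-coding genes of the mitochondrial genome had a negative log2 change, 9 were lower, and the median was -0.92. This list was added after values had been seen. The summed level of the 12 genes overlapped between the groups, at 3931 to 7707 CPM in ethanol and 1930 to 4440 CPM in auxin. CYTB, cytochrome b, stood at 1372, 1029 and 709 CPM in ethanol and at 480, 232 and 241 CPM in auxin (log2 change -1.74 ± 0.126 SE, adjusted p 1.43e-05). ND4, a subunit of complex I, stood at 547, 272 and 242 CPM against 169, 63.3 and 93.3 CPM (-1.73, adjusted p 1.71e-05). Within each pair the auxin library was far lower, although ethanol levels differed about 2-fold between replicates. COX3 was at 1711, 989 and 912 CPM against 1665, 763 and 819 CPM and did not pass (-0.19, adjusted p 0.24). Only CYTB and ND4 passed without the block. Mitochondrial rRNA did not separate the groups per protein-coding count, at 0.0296, 0.0148 and 0.0139 in ethanol and 0.0225, 0.00880 and 0.0131 in auxin (exact p = 0.5). As a share of all fractional counts it was at 0.249%, 0.163% and 0.120% in ethanol and 0.434%, 0.268% and 0.262% in auxin, without overlap (exact p = 0.1, the smallest that 3 against 3 allows). Its direction thus depended on the denominator: the ratio was lower and the share higher in 3 of 3 pairs. Of 42 nuclear genes of the respiratory chain and ATP synthase 2 were higher and 2 lower, beside 7.18 and 6.85% of all genes tested. The 2 lower genes, atp-2 (-0.91) and atp-1 (-0.86), encode the beta and alpha subunits of the ATP synthase, and atp-1 passed in both fits.

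Translation factors rose more often than they fell. Of 38 tested 10 were higher and 4 lower, with a median log2 change of 0.21, and without the block 4 were higher and 0 lower. These counts and those of the next 2 lists are read beside 7.18% higher and 6.85% lower of all genes tested. eef-1A.2 (WBGene00001169, on the plus strand of X from 7823654 to 7825769), a gene for elongation factor 1A, rose from 58.9, 56.1 and 84.3 CPM to 145, 222 and 187 CPM (log2 change 1.48 ± 0.161 SE, adjusted p 0.000139). Its far more abundant copy eef-1A.1 fell, from 12413, 15652 and 14276 CPM to 9557, 9744 and 9254 CPM (-0.56, adjusted p 0.00512; 0.0738 without the block). The 2 genes thus differed in direction, and neither pair of groups overlapped. For eef-1A.2 this was a condition for naming it among the largest rises. eif-3.I (0.90) and eif-3.D (0.75), subunits of initiation factor 3, rose in both fits, while ifg-1 (-0.67), the scaffold eIF4G, fell with the block only. Of 32 aminoacyl-tRNA synthetases 5 were higher, led by cars-1 (0.65), and 3 lower, led by rars-1 (-0.80). Without the block 1 synthetase was higher and 1 lower. Of 33 proteasome subunits 1 was higher and 5 lower, and 0 passed without the block.

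Genes of the endoplasmic reticulum (ER), where secreted and membrane proteins are made and folded, fell relative to protein-coding counts where they changed. Of 19 ER chaperones and folding enzymes tested 0 were higher and 12 lower, with a median log2 change of -0.92. hsp-3 (WBGene00002007, on the minus strand of X from 6089028 to 6092124), a BiP chaperone, fell from 351, 318 and 326 CPM to 84.5, 61.6 and 137 CPM (log2 change -1.89 ± 0.173 SE, adjusted p 4.11e-05). Its paralogue hsp-4 fell from 939, 915 and 861 CPM to 513, 452 and 455 CPM (-0.94, adjusted p 8.72e-05). Neither BiP gene overlapped between the groups, which for hsp-3 was a condition for naming it among the largest falls. The calcium-binding chaperone calreticulin, crt-1, fell from 1495, 1379 and 1454 CPM to 589, 494 and 858 CPM (-1.20), and the disulfide isomerase pdi-2 by 1.75 on the log2 scale. Without the block 6 chaperones remained lower. Their summed level was 5852 to 6862 CPM in ethanol and 3382 to 3939 CPM in auxin.

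Part of the machinery that brings proteins into the ER was lower. Of 17 genes of translocation, glycosylation and signal peptidase 8 were lower and 1 higher, with a median of -0.37, and 7 were lower without the block. All 4 subunits of the translocon-associated complex fell: trap-2 by 2.38, trap-3 by 0.99, trap-4 by 0.99 and trap-1 by 0.93 on the log2 scale. trap-2 (WBGene00020216, on the minus strand of X from 767023 to 768069) went from 56.5, 38.5 and 54.7 CPM to 12.96, 4.02 and 14.9 CPM (SE of the log2 change 0.293, adjusted p 0.000284). The channel subunit sec-61.A went from 675, 959 and 667 CPM to 318, 389 and 335 CPM (-1.13, adjusted p 3.57e-05). Of 10 regulators of the unfolded protein response and of ER-associated degradation 1 was higher and 1 lower, beside 7.18 and 6.85% of all genes tested. xbp-1, the transcription factor that induces ER chaperones under stress, rose from 163, 151 and 165 CPM to 234, 229 and 229 CPM (0.53, adjusted p 0.00596; 0.0612 without the block). cdc-48.2 fell by 0.47 on the log2 scale with the block only.

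Of 14 cytosolic and mitochondrial heat shock genes tested 8 were lower and 0 higher, with a median of -0.50. The mitochondrial chaperonin hsp-60 fell from 1860, 2220 and 1941 CPM to 847, 826 and 899 CPM (log2 change -1.22 ± 0.102 SE, adjusted p 2.67e-05). hsp-90 fell from 5666, 5843 and 5482 CPM to 2893, 3125 and 2994 CPM (-0.92), and the constitutive Hsp70 gene hsp-1 by 0.95 on the log2 scale. These 3 passed without the block, where they were all of the lower heat shock genes. hsp-6, the mitochondrial Hsp70, fell by 0.69 with the block only. Of the 8 subunits of the cytosolic chaperonin CCT only cct-7 passed (-0.44), and not without the block. Of all genes tested 6.85% were lower.

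**Figure D2:**
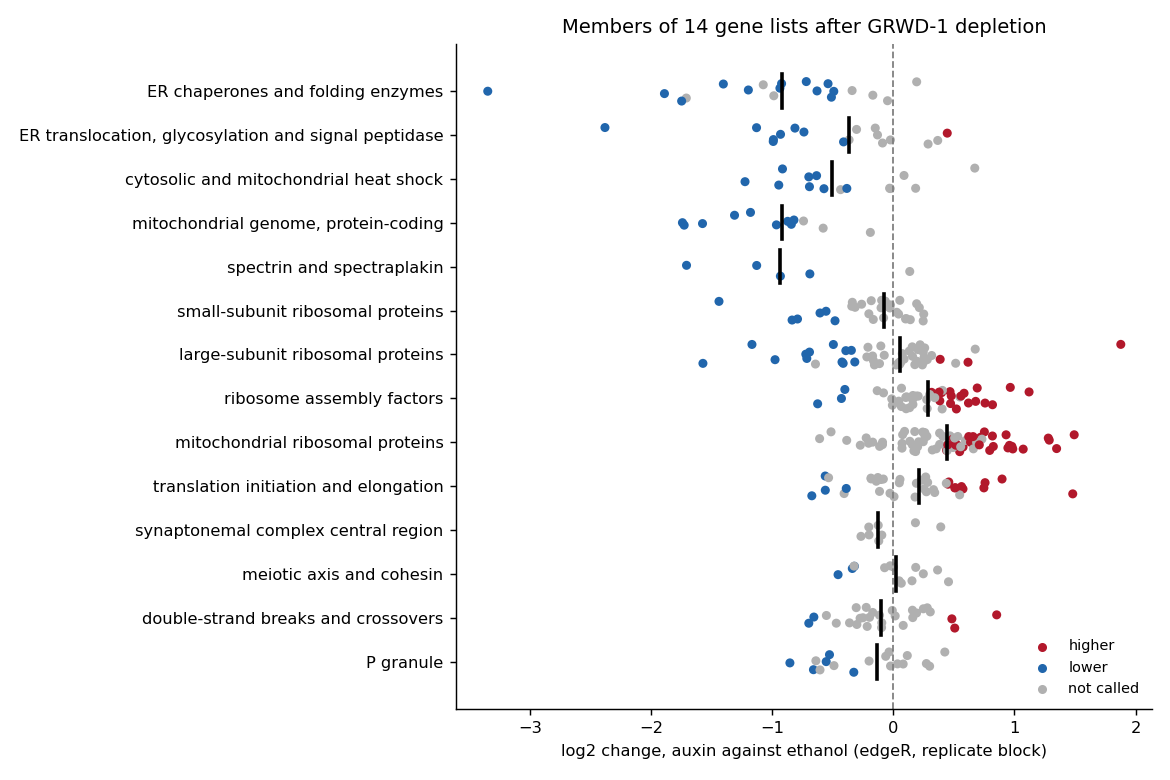
Log2 change of each tested member of 14 gene lists (one point per gene, red higher, blue lower, grey not called), with the list median as a black bar and the median of all genes tested as a dashed line. ER and heat shock genes and transcripts of the mitochondrial genome lie to the left, mitochondrial ribosomal proteins and assembly factors to the right, and ribosomal proteins on both sides.

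The largest changes by the rule for naming genes included several outside these families. Y53G8AL.1 (WBGene00021799, on the plus strand of III from 3233102 to 3241375) was at 3.38, 0 and 0 CPM in ethanol and at 46.8, 64.4 and 20.7 CPM in auxin. Its 2 empty ethanol libraries make the fitted log2 change, 5.49 ± 0.614 (SE, adjusted p 0.000164), depend on the prior count. dpy-1 (WBGene00001063, on the minus strand of III from 2034988 to 2048007), a gene of body shape, rose from 6.27, 6.47 and 4.05 CPM to 46.2, 94.4 and 22.5 CPM (3.17, adjusted p 6.74e-05). rimb-1 (WBGene00006513, on the plus strand of III from 1788333 to 1807147), a RIM-binding protein of synapses, rose from 6.27, 13.7 and 4.05 CPM to 44.5, 67.7 and 35.8 CPM (2.68, adjusted p 8.72e-05). These 3 lie on the left of chromosome III, where 87 genes were tested between 1788333 and 3241375. Of those 10 were higher and 7 lower, and their median log2 change was 0.085. dyf-3 (1.73), a gene of ciliary transport, Y43B11AR.3 (1.56) and the homeobox gene ceh-91 (1.39) completed the rises, with the genes above and tos-1.

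Among the falls, gpch-1 (WBGene00011109, on the plus strand of III from 4408551 to 4412217) went from 236, 299 and 221 CPM to 95.2, 62.9 and 63.6 CPM (log2 change -1.79 ± 0.158 SE, adjusted p 3.57e-05). spd-3 (WBGene00004954, on the plus strand of IV from 6762716 to 6765200), a mitochondrial protein needed to orient the spindle in embryos, went from 38.1, 60.8 and 42.5 CPM to 14.3, 9.25 and 7.89 CPM (-2.19, adjusted p 0.000512). In both genes the lowest ethanol library was more than double the highest auxin library. F28C1.3 (-2.12), Y46H3C.5 (-1.80) and H37A05.4 (-1.62) fell too. Groups without overlap were a condition for naming the largest rises and falls.

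**Figure D3:**
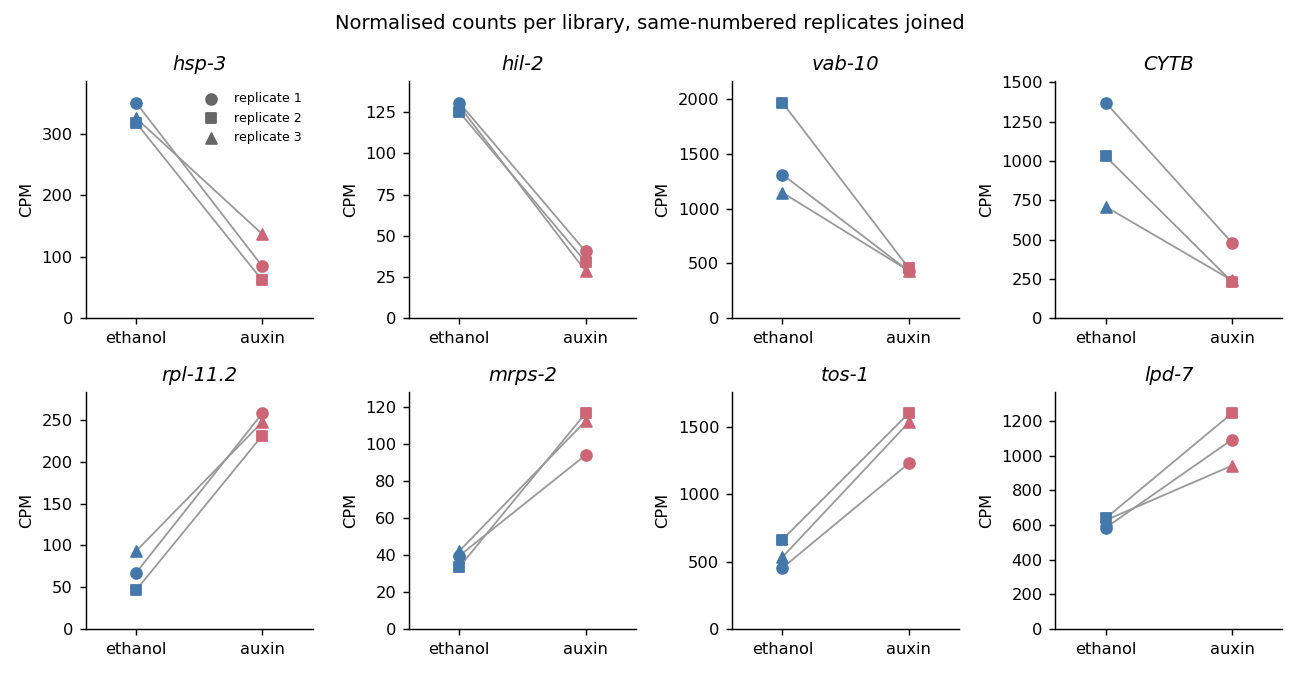
Normalised counts (CPM) in each ethanol (blue) and auxin (red) library for 4 genes that fell (hsp-3, hil-2, vab-10, CYTB) and 4 that rose (rpl-11.2, mrps-2, tos-1, lpd-7), with same-numbered replicates joined. In each of the 8 genes all 3 auxin libraries lie on the same side of all 3 ethanol libraries, which was a condition for naming all of them except lpd-7.

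Chromatin genes changed singly, and their counts are read beside the 7.18% higher and 6.85% lower of all genes tested. The linker histone gene hil-2 (WBGene00001853, on the plus strand of IV from 6294240 to 6295217) fell from 131, 125 and 129 CPM to 40.6, 34.2 and 28.6 CPM (log2 change -1.90 ± 0.153 SE, adjusted p 1.99e-05), and hil-5 from 149, 198 and 253 CPM to 120, 109 and 80.0 CPM (-0.94). Both passed without the block. hil-4, the most abundant linker histone gene of these libraries, was at 300, 294 and 426 CPM against 265, 327 and 309 CPM and did not pass (adjusted p 0.407). Of 38 core histone genes tested 7 were lower and 1 higher; their copies are nearly identical, so reads could be split among them, and only his-61 (-0.85) passed without the block. The study concerns histone H3 lysine 4 methylation. Of 16 genes that set or remove this mark 2 were higher, ash-2 (0.60) and hcf-1 (0.35), and 1 lower, set-2 (-0.33), which encodes the main methyltransferase. set-2 stood at 309, 453 and 331 CPM in ethanol and 256, 359 and 254 CPM in auxin, overlapping between groups but lower in each pair, and 0 of these genes passed without the block. Of 14 genes of repressive and H3K36 chromatin only mes-6, a subunit of the Polycomb-like complex that methylates lysine 27, passed, falling from 170, 164 and 120.7 CPM to 80.9, 78.3 and 58.8 CPM (-1.06, adjusted p 0.000193) in both fits.

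The counts of called meiotic genes are read beside the 7.18% higher and 6.85% lower of all genes tested. Of the 8 synaptonemal complex genes, which hold paired chromosomes together, 0 passed in either fit. syp-1, a central region protein, was at 247, 193 and 143 CPM in ethanol and 259, 249 and 241 CPM in auxin (0.39, adjusted p 0.0601), the nearest to the threshold. Of 14 axis and cohesin genes 3 were lower, the cohesin genes coh-4 (-0.46), smc-3 (-0.32) and evl-14 (-0.34). Of 14 pairing genes 1 was higher, cmt-1 (0.70). Among 28 genes of double-strand breaks and crossovers 3 were higher, zhp-1 (0.85), him-18 (0.51) and mus-81 (0.48), and 2 lower, rmh-1 (-0.70) and the crossover factor msh-5 (-0.66). None of the genes in these 4 lists passed without the block. Of 19 genes of apoptosis and the DNA damage checkpoint the kinase gene atm-1 alone passed, falling from 333, 414 and 288 CPM to 209, 235.0 and 166 CPM (-0.76, adjusted p 0.000392; 0.0454 without the block).

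Regulators of germ cell fate, oocyte RNA and the eggshell gave calls in both directions, beside 7.18% higher and 6.85% lower of all genes tested. Of 21 genes of stem cells and meiotic entry 2 were higher, fem-3 (0.57) and puf-3 (0.39), and 2 lower, gld-4 (-0.44) and atx-2 (-0.34). Of 22 oocyte RNA-binding proteins 5 were higher and 2 lower. The rises were led by cpb-1 (0.73) and puf-5 (0.39), and the falls by lin-41 (-0.64), a regulator of oocyte growth, which went from 616.8, 1010 and 805 CPM to 459, 614 and 469 CPM. None of the members of these lists passed without the block. Of 21 eggshell genes 1 was higher, egg-4 (0.52), and 2 lower, perm-1 (-0.69) and the chondroitin proteoglycan gene cpg-3, which fell from 431, 369 and 428 CPM to 195, 149 and 273 CPM (-1.03, adjusted p 0.000246) in both fits.

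Of 18 P granule genes, which belong to the granules of RNA and protein in germ cells, 5 were lower and 0 higher. Of all genes tested 6.85% were lower and 7.18% higher. With scaling by total counts 3 P granule genes were lower and 2 higher. The helicase genes znfx-1 (-0.85) and glh-2 (-0.66) passed in both fits, and laf-1 (-0.53) and pgl-3 (-0.33) with the block only. znfx-1, needed for inheritance of small RNA silencing, went from 818, 1010 and 700 CPM to 476, 556 and 370 CPM. Of 16 Argonautes tested, the proteins that small RNAs guide, 2 were higher, prg-1 (0.52) and ergo-1 (0.45), and 2 lower, rde-1 (-0.56) and ppw-1 (-0.57), none of them without the block.

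Of 5 spectrin and spectraplakin genes 4 were lower, with 2 of them lower without the block. vab-10 (WBGene00006876, on the minus strand of I from 11747424 to 11804991), a spectraplakin that links actin to microtubules, went from 1312, 1969 and 1147 CPM to 431, 458 and 434 CPM (log2 change -1.71 ± 0.128 SE, adjusted p 1.51e-05). The auxin libraries agreed closely and lay far below ethanol, though separate groups were a condition for naming vab-10 among the largest falls. On the other strand 3 annotated genes overlap vab-10, and the strand setting of the counting is not given in the sources used here. sma-1 (-0.93), unc-70 (-1.13) and spc-1 (-0.69) encode spectrins. Long genes fell more often in general. Among the quintile of genes with the longest exonic sequence (2827 to 56044 bases) 65 were higher and 190 lower, against 83 and 82 in the shortest quintile, and across 6948 genes the log2 change had a Spearman correlation of -0.138 with exonic length, where genes are not independent.

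Among the other lists, that of splicing factors gave 1 call of 11, which was no SR factor but tos-1 (WBGene00019466, on the minus strand of V from 9338859 to 9344203), a transcript whose splicing serves as a reporter. It rose from 454, 665 and 534 CPM to 1231, 1604 and 1536 CPM (log2 change 1.41 ± 0.0988 SE, adjusted p 1.43e-05), the smallest p of all rises named here. Its fractional counts exceeded its unique counts 1.57-fold, so part of its reads map elsewhere too. Of 19 genes of glutathione and oxidative stress 2 were higher, gst-24 (1.72) and gcs-1 (0.65). Of 17 genes of TOR signalling and autophagy 1 was higher, rict-1 (0.64), and 1 lower, bec-1 (-0.71). None of these passed without the block, and of all genes tested 7.18% were higher and 6.85% lower with it. The 31 major sperm protein genes did not pass the filter on low counts, and none of them was tested.

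Transcripts of other tissues differed between libraries. All 6 vitellogenin genes, which encode yolk proteins made in the intestine, passed with the block and fell, while their oocyte receptor rme-2 did not pass (-0.20, adjusted p 0.17). vit-2 was at 1417, 391 and 253 CPM in ethanol and 528, 126 and 270 CPM in auxin, so the groups overlapped, pair 3 went the other way, and none of the 6 passed without the block. The 10 intestinal markers, vit-2 and vit-6 among them, summed to 684 to 3966 CPM in ethanol and 370 to 1521 CPM in auxin. Of 9 markers of the gonadal sheath and spermatheca only filamin, fln-1, passed, falling from 2363, 2993 and 2020 CPM to 965, 1178 and 775 CPM (-1.34, adjusted p 1.43e-05), and it made up most of their sum. The median of the 9 was 0.17. Of 9 muscle markers 1 was higher, unc-15 (0.91), with the block only. All 9 had a positive log2 change, with a median of 0.28, and their sum was 245 to 316 CPM in ethanol and 295 to 402 CPM in auxin. The 6 hypodermal markers tested gave 0 calls, with a median of 0.31 and sums of 115.5 to 157 and 159 to 172 CPM. The 5 neuronal markers gave 0 calls, with a median of 0.73 and sums of 12.23 to 28.0 and 14.2 to 32.3 CPM. The median of the 4 intestinal markers tested was -0.95. Calls among markers are read beside the 7.18% higher and 6.85% lower of all genes tested. The part of these cell types in the results was not tested.

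On the X chromosome few genes rose. Of 663 X-linked genes tested 7 were higher (1.06%) and 50 lower (7.54%), against 7.84% higher and 6.65% lower of 6273 autosomal genes. Without the block 3 X-linked genes were higher and 8 lower, and 81 autosomal genes were higher and 93 lower. The median log2 change on the X was -0.34. The pairs did not share it, with X medians of -0.35 in pair 1, -0.63 in pair 2 and 0.079 in pair 3. hsp-3, pdi-2 and trap-2 are X-linked genes that fell, and rpl-11.2 and eef-1A.2 are X-linked genes that rose. On autosomes the median was between -0.0057 and 0.047.

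**Figure D4:**
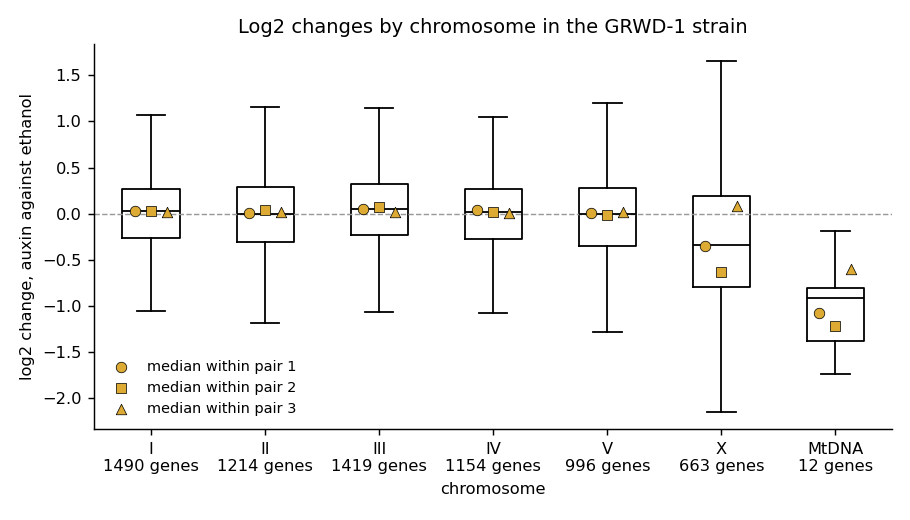
Log2 change of the genes tested on each chromosome (boxes show the quartiles and median, whiskers 1.5 times the interquartile range, points beyond them not drawn), with the median within each pair as a marker. X medians lie below 0 in pairs 1 and 2 and above 0 in pair 3, while autosomal medians lie close to 0 in every pair.

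The RPOA-2 strain, with 4 ethanol and 4 auxin libraries treated in the same way, shows which changes differ from those after depletion of RNA polymerase I. In a test of the difference between the strains, 2 of 9495 genes (0.0211%) passed, against 734 before adjustment at p under 0.05. gpch-1 fell by 1.79 on the log2 scale in the GRWD-1 strain and averaged 256 CPM in ethanol and 228 CPM in auxin in the RPOA-2 strain (-0.15, adjusted p 0.492), a difference of -1.62 ± 0.216 (SE, adjusted p 0.00797). K02F3.12 (WBGene00019334, on the plus strand of III from 856560 to 860090) fell from 156, 164 and 167 CPM to 103, 99.3 and 107 CPM after GRWD-1 depletion (-0.66, adjusted p 0.00327) and stood at 123.6 against 165 CPM after RPOA-2 depletion (0.42, adjusted p 0.0664). The difference for K02F3.12 was -1.06 ± 0.171 (SE, adjusted p 0.0425; 0.114 without the block). Next were mrps-17 (1.51, adjusted p 0.0601), eif-3.I (1.02, adjusted p 0.0673) and tcer-1 (-0.86, adjusted p 0.0673), which did not pass with edgeR but did with DESeq2 (adjusted p 3.55e-05, 2.53e-05 and 2.53e-05). The libraries of the strains belong to different numbered series apart from RPOA-2 replicate 4, so the effects of strain and of library series cannot be told apart in full. For hil-2 the log2 changes were -1.90 and -1.96, for hsp-3 -1.89 and -1.48, and for tos-1 1.41 and 1.16 in the GRWD-1 and RPOA-2 strains, and for rpl-11.2 1.88 and 0.64. A difference that did not pass is not shown to be absent.

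**Figure D5:**
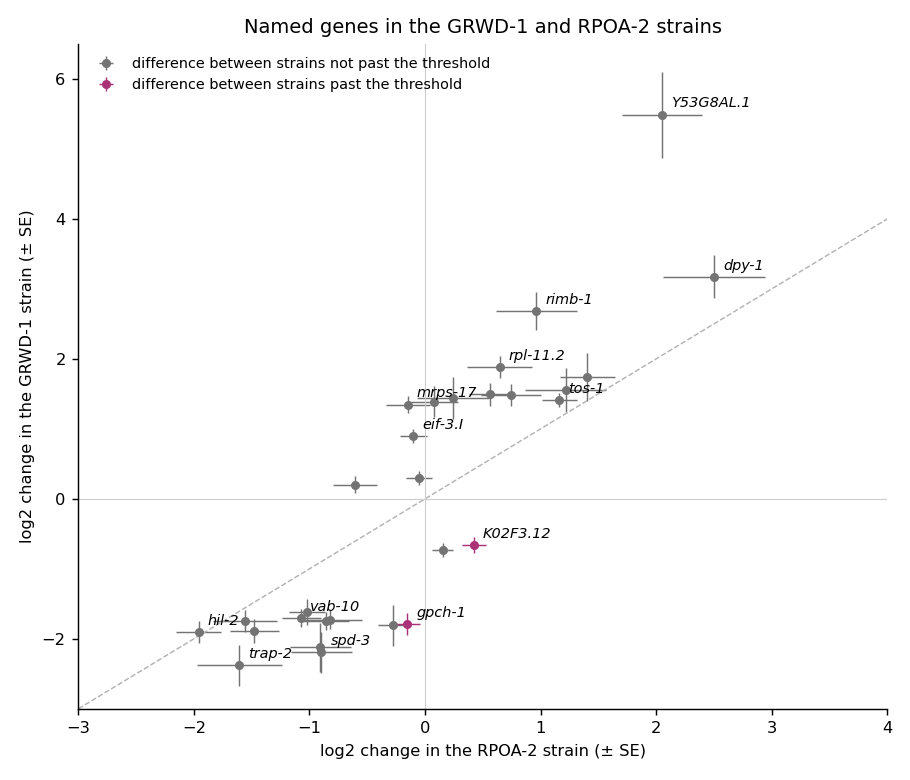
Log2 change with auxin in the GRWD-1 strain (vertical axis) against the RPOA-2 strain (horizontal axis) for 29 named genes, with bars of 1 SE and a dashed line of equal change. gpch-1 and K02F3.12 are the genes for which the difference between strains passed, and hil-2 lies near the line.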

How the data were processed

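Total RNA of dissected gonads was made into stranded, PCR-amplified libraries, per the labels' protocols. The authors deposited whole-number counts per protein-coding gene (19985 genes, without normalization) and expected counts, in which multi-mapping reads are shared out as fractions (46930 features), of which the rRNA and spacer counts were used. The submitters' processing notes name Trim Galore 0.6.10, HISAT2 2.2.1, Picard, featureCounts 2.0.6 and WBcel235; their settings, strand included, are not given in the sources used here. All 19985 identifiers were found in Ensembl release 115.

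The gene test used R 4.3.3 and edgeR 4.0.16 (filterByExpr, TMM, quasi-likelihood F test with the replicate number as block, Benjamini-Hochberg adjustment over all genes tested). Standard errors were obtained by dividing the log2 change by the root of F. The difference between strains was a contrast in a fit of 14 libraries. Same-numbered libraries were taken as pairs from the replicate numbers in the labels; their departures from the group means correlated across genes with coefficients of 0.459, 0.427 and 0.233. For rRNA values the test was an exact permutation test, two-sided.

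Named genes were grwd-1 and rpl-3, the 12 largest rises and 12 largest falls (adjusted p under 0.05 with and without the block, a mean of at least 10 CPM, no overlap of the groups), up to 4 called members per list and direction by adjusted p with any member that a list's description turns on, and the 5 genes with the smallest adjusted p in the difference between strains. Members and the 43 lists were chosen with earlier results of these data known. Alternatives were no block, RLE size factors, total counts, DESeq2 1.42.0, other filters, a 2-fold minimum, a fit with RPOA-2, thinned counts, rounded fractional counts and leaving out replicates or libraries. The ratio of 26S to 18S, the separate 18S and 26S shares and the list of the mitochondrial genome were added after the data were seen. Promoter motifs were not analysed here. The values of 1 called gene are not reported here. No 2 libraries were identical.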

Additional observations from a re-analysis of the deposited data

Results flagged for a closer look

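In a test of the difference between strains, the log2 change of gpch-1 with auxin was lower in the GRWD-1 than in the RPOA-2 strain. The difference was -1.62 (edgeR, adjusted p 0.00797, and 0.0348 without the replicate block), and gpch-1 was lower in 3 of 3 GRWD-1 pairs. In the RPOA-2 strain gpch-1 did not pass (-0.15, edgeR, adjusted p 0.492). K02F3.12 differed by -1.06 (adjusted p 0.0425), was lower in 3 of 3 GRWD-1 pairs, and did not pass without the block (adjusted p 0.114). Without RPOA-2 replicate 4 the differences were -1.73 and -1.14, and both passed. Strain and library series cannot be fully told apart in these values.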

How the results depend on the processing

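The number of calls depended on the design. Against 499 higher and 476 lower genes with the replicate block, 84 and 103 passed with no replicate block, 322 and 276 in a fit with the RPOA-2 libraries, and 60 and 99 with a minimum of a 2-fold change. Leaving out each replicate pair gave 168 to 623 higher and 275 to 522 lower genes, and without the block leaving out each library gave 13 to 57 and 13 to 68: without ethanol replicates 1, 2 and 3 the counts were 28, 17 and 13 higher and 37, 19 and 13 lower, and without auxin replicates 1, 2 and 3 they were 31, 57 and 41 higher and 40, 68 and 37 lower. The difference between strains passed for 2 genes in the main fit, 1 without the block and 57 with DESeq2. No gene called in an alternative was called in the opposite direction. The log2 ratio of ITS2 to mature rRNA was -0.20 and ran from -0.39 to 0.014 with a replicate pair left out, turning positive without replicate 3, and that of the 18S share was 0.099 and turned to -1.14 as a ratio to protein-coding counts. Without the block, his-64 turned to 0.32 without ethanol replicate 3, and vit-5 to 0.032 and vit-6 to 0.087 without ethanol replicate 1; the cause was not tested. Of 141 named genes 82 lost their call without the block and 0 with RLE size factors. The ethanol libraries are the shallower in protein-coding counts, which limits what can be seen of genes near 1.45 CPM.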
